A study of Mus musculus with 8 samples.

Results

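The cells described here are the small share of sorted smooth muscle cells with the transcript of a contractile protein, Myh11, above a low limit in the 4-month knockout aorta. They were chosen in that library as the cells with at least 2 unique molecular identifiers (UMIs, each standing for 1 captured transcript) of Myh11, the smooth muscle myosin heavy chain. The rule found 94 of the library's 1577 cells, out of 13056 cells in all 8 libraries. The count of Myh11 UMIs chose them, so every gene that differed between these Myh11-positive cells and the rest of the library is given as a description, with no test.

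The study sorted GFP-positive cells, labelled as smooth muscle cells, from the ascending aorta of mice and sequenced each sample on the 10x Genomics droplet platform. One genotype is labelled Apoe-/- and the other TGFBetaRiSMC-Apoe, in which the TGF-beta receptor gene Tgfbr2 was deleted in smooth muscle cells of Apoe mice, here called the knockout. All mice thus lacked Apoe, which predisposes mice to atherosclerosis, and there was no group with Apoe intact. Each genotype had 1 library on the diet labelled ND and 1 library each after 1, 2 and 4 months of a diet labelled HFD, a high-fat diet, so no difference between libraries has a replicate check. The labels do not give the promoter that drove the deletion, the animals' age or the number of animals behind a library.

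Contractile smooth muscle cells make up the media of the aorta and hold it under tension through actin and myosin filaments. Serum response factor and its partner myocardin turn on many of their genes through short sequences called CArG boxes. TGF-beta signalling through Tgfbr2 supports this contractile state and the synthesis of elastic fibres. Smooth muscle cells can leave that state and take on genes of fibroblasts, cartilage or bone.

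The Myh11-positive cells held 824937 UMIs in all, with a median of 7594.5 UMIs per cell and a range of 3313 to 26950. Knockout cells of the 2-month library with at least 2 Myh11 UMIs had a median of 7580 UMIs, whereas the 1372 cells of the 4-month knockout library with 0 Myh11 UMIs had a median of 11071.5. UMIs mapped to mitochondrial genes made up a median 1.46% of a Myh11-positive cell, against 1.05% and 1.55% in those groups. Any pair of libraries shared 0 to 9 cell barcodes, and 3 barcodes of the Myh11-positive cells also occurred in another library, 1 of them in the 2-month knockout library. A level is the UMI sum of a gene over a group of cells per 1000000 UMIs of that group (CPM), and its 95% interval is the exact Poisson one. The 95% interval of a cell share is the exact Clopper-Pearson one. Both cover counting error only, not the spread between mice.

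The 94 cells were 5.96% of the 4-month knockout library (95% interval 4.84 to 7.25%). The same count of Myh11 UMIs was met by 91.7% of cells in the knockout library at 2 months, 98.2% at 1 month and 99.9% on ND. In the Apoe-/- library at 4 months it was met by 1022 of 1235 cells, or 82.8%. After every cell was thinned to 3000 UMIs, 77 cells of the 4-month knockout library, 4.88%, still had at least 2. At the edge of the rule, 11 cells had 2 Myh11 UMIs, just inside, and 111 cells had 1, just outside. Contractile genes other than Myh11 made up a median 0.201% of the UMIs of the cells with 1 Myh11 UMI, next to 0.200% in cells with none.

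The label of contractile cells was checked against its other markers. Acta2, the smooth muscle actin (chromosome 19, 34241090 to 34255590, minus strand, GRCm38), had at least 1 UMI in all 94 cells, and Cnn1, the actin-binding protein calponin (chromosome 9, 22099216 to 22109630, plus strand), in 88. Myl9, the regulatory light chain of smooth muscle myosin (chromosome 2, 156775420 to 156781658, plus strand), had one in 92. Eln, which encodes elastin (chromosome 5, 134702593 to 134747323, minus strand), had one in 50, or 53.2% (42.6 to 63.6%). Filament gene transcripts were thus detected in nearly all 94 cells, while elastin was low. At least 1 UMI is a weak check of the label, since cells with no Myh11 also held some Acta2 transcript. Contractile genes without Myh11 reached 1% of the UMIs in 87 of the 94 cells, and the lowest share was 0.206%. Other cell types could be checked only in part, since a gene is listed for the library only if at least 79 of its 1577 cells carry it, and a marker of most of the 94 cells alone could be missing. Endothelial and lymphocyte markers and 11 of 14 macrophage markers were listed at 0, from which nothing is read. The listed macrophage markers, Cd68, Lyz2 and Cd14, summed to between 0 and 498 CPM per Myh11-positive cell, with a median of 0.

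Of the 15 genes with the highest ratio to the cells without Myh11, 12 had a promoter in the RefSeq table, and Myl9 was the 1 with a CArG box before its start, so its upstream sequence is shown. The stretch of 100 bases is from the RefSeq promoter table (GRCm38.p6, chr2:156775258-156775357, plus strand), and the capitals mark the box.
Myl9: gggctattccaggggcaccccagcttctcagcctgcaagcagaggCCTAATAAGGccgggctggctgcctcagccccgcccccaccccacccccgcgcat
The CArG box, searched on both strands in the 250 bases before a gene's start, was found in 482 of 32851 promoters, or 1.47%. Among the contractile genes with a promoter in the table it was found in 3 of 21, Myl9, Ldb3 and Myl6. A match describes the letters only, and no match says only that they are not in this window.

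In the Myh11-positive cells 20 of 21 contractile genes tested were at least 2-fold higher than in cells of the same library with no Myh11, and none was 2-fold lower. Acta2 stood at 13716 CPM (13465 to 13971) against 187. Myl9 stood at 5668 CPM against 43.3, and Cnn1 at 1681 CPM against 15.9. The intervals did not overlap for any of these, and the contractile list had a median log2 ratio of 5.65 against 0.24 over all genes tested.

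Across all 6478 genes with at least 20 CPM in either group, 1173 (18.1%) were at least 2-fold higher in the Myh11-positive cells and 461 (7.12%) at least 2-fold lower. With the median ratio of all genes set to 0, the split became 862 higher and 695 lower. Leaving out Myh11, the highest ratios belonged to Tagln, which encodes the actin-binding transgelin (394 CPM against 1.88), and Actg2, the gamma form of smooth muscle actin (729 against 4.45). Itga8, an integrin subunit of smooth muscle, stood at 598 CPM against 4.26, and Lmod1, which nucleates actin filaments, at 777 against 12.2. Fblim1, Pdlim3, Sh3bgr, Ppp1r14a, Mcam and Itih4 also ranked among the 15 highest, as did Sost and Rgs5. The exception in the contractile list was Synm, a filament protein that links desmin to the membrane, at 52.1 CPM against 57.1.

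Within the 94 cells, classes with more Myh11 UMIs had higher levels of other contractile genes, a description since the count set the classes. Cnn1 stood at 210 CPM in the 11 cells with 2 Myh11 UMIs, 949 in the 13 cells with 3 or 4, 1240 in the 17 cells with 5 to 9 and 2402 in the 53 cells with 10 or more. Acta2 stood at 2666, 9180, 9193 and 19360 CPM in the same order. The 11 cells just inside the rule thus had the lowest levels of both genes, and the 53 cells with 10 or more had the highest. Eln showed no such order, at 218, 136, 101 and 173 CPM, and 1 cell held 15 of its UMIs in the class with 2. Col2a1 stood at 7213, 2326, 1133 and 1517 CPM, but its value in the cells just inside the rule rested on a few cells. In that class 4 cells with a cartilage share of at least 1% held 60 to 501 Col2a1 UMIs each. The other 7 cells held 6 to 16 each.

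**Figure D1:**
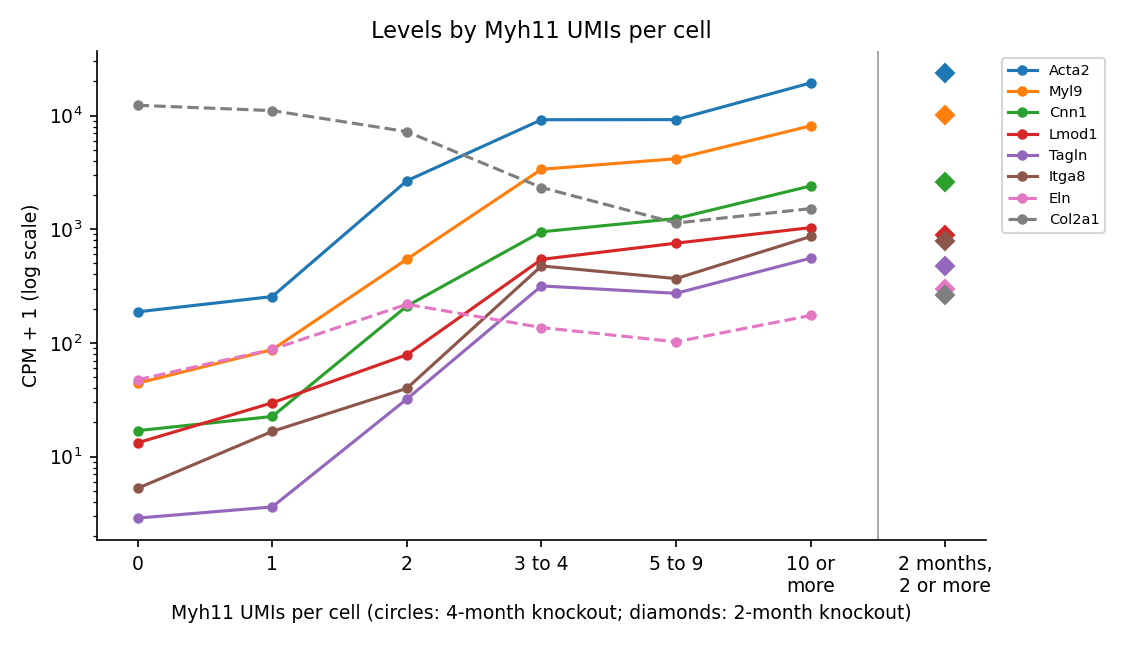
Levels (CPM + 1, log axis) of 8 genes in cells of the 4-month knockout library by their number of Myh11 UMIs (circles), with 2-month knockout cells with at least 2 Myh11 UMIs as diamonds. Acta2 climbs from 187 CPM in cells with no Myh11 to 19360 in cells with 10 or more, and Eln stays low. Col2a1 is highest in cells with no Myh11, and its level at 2 Myh11 UMIs rests largely on 4 cells.

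Genes of the actin cytoskeleton and focal adhesions followed, with 15 of 18 at least 2-fold higher and none lower (median log2 ratio 1.93). Tmsb4x, the actin-binding thymosin beta 4, stood at 11678 CPM against 245. Of the 11 elastic fibre genes tested, 8 were higher and Emilin1 was lower (247 CPM against 564). Loxl1, which cross-links elastin, stood at 171 CPM against 10.2, and Mfap5, a microfibril protein, at 124 against 10.7. Eln itself stood at 162 CPM (136 to 192) against 46.4.

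Membrane and signalling genes were mixed. Of 6 caveolae genes 4 were higher. Of 9 ion channel and vasoactive receptor genes 6 were higher and Kcnma1, a calcium-activated potassium channel, was lower (50.9 CPM against 142). Gucy1a1, a subunit of the nitric oxide receptor, stood at 273 CPM against 4.64. Of 4 Notch genes 3 were higher, among them the ligand Jag1 at 113 CPM against 32.4. Of 26 genes of TGF-beta signalling and its targets 7 were higher and 2 lower, with a median log2 ratio of 0.55. Among 7 regulators of the contractile state none was higher, and the factors Klf4 (315 CPM against 768) and Klf2 (212 against 455) were lower. Of 13 oxidative phosphorylation genes 1 was at least 2-fold higher and none lower, with a median log2 ratio of 0.74 beside 0.24 over all genes tested. Of 17 stress and dissociation genes 3 were higher and 2 lower.

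All 25 cartilage genes tested were at least 2-fold lower in the Myh11-positive cells, with a median log2 ratio of -1.92. Comp, a cartilage matrix protein, stood at 652 CPM against 3665, and Col2a1, the main cartilage collagen, at 2418 against 12300. Of 15 bone and mineral genes 12 were lower, with Ibsp, a bone sialoprotein, at 372 CPM against 2539 and Spp1, osteopontin, at 970 against 5360. Sost, which encodes the Wnt inhibitor sclerostin (chromosome 11, 101962458 to 101967015, minus strand), was the one higher, at 458 CPM (413 to 507) against 2.57. The lowest ratio in the comparison was that of Slpi, a secreted protease inhibitor, at 3.64 CPM against 90.6. Other genes at that end were Prg4, the joint lubricant lubricin (202 against 1413), Otor, a secreted protein of cartilage (165 against 1460), and Mmp13, a collagenase of cartilage and bone (42.4 against 260). Fibroblast genes were nearer, with 2 of 8 lower and none higher. Dcn, the collagen-binding proteoglycan decorin, was 1 of the 2, at 3306 CPM against 8055. Lum, the related lumican, was lower by less than 2-fold, at 2753 CPM against 4083.

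The same contrast was taken in 2 other libraries, whose cells are not shared with these. In the 2-month knockout library, 864 of 6353 genes (13.6%) were at least 2-fold higher in cells with at least 2 Myh11 UMIs than in cells with none, and 461 (7.26%) lower. Of the 1070 genes higher in the 4-month Myh11-positive cells and tested there, 940 had the same sign and 477 (44.6%) passed 2-fold, against 640 of all 5767 shared genes (11.1%). Of the 273 lower genes, 254 had the same sign and 171 passed 2-fold, against 429 of all (7.44%). In the 4-month Apoe-/- library, where 1027 of 6602 genes were higher (15.6%) and 441 lower (6.68%), 953 of 1075 higher genes and 255 of 287 lower genes had the same sign. There 484 and 171 of them passed 2-fold, against 13.1% and 6.79% of shared genes. The share of all shared genes with each sign was not counted, so nothing is read from the same-sign counts alone. The median log2 ratio of all shared genes was 0.08 in the 2-month knockout library and 0.24 in the 4-month Apoe-/- library. Eln ran the other way in the 2-month knockout library, at 299 CPM in cells with at least 2 Myh11 UMIs against 1450 in cells with none. The rise of the elastic fibre list was not repeated there either. Of 12 such genes tested none was at least 2-fold higher and 4 were lower, with a median log2 ratio of -0.59. In the 4-month Apoe-/- library 3 of 13 were higher and 2 lower, with a median of 0.24.

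Per cell, contractile genes without Myh11 made up a median 5.08% of the UMIs of a Myh11-positive cell, with a range of 0.206 to 10.1%. The median was 6.97% in the 2-month knockout cells and 0.200% in cells of the same library with no Myh11. Contractile genes reached 1% in 87 of the 94 cells, in 2 of the 111 cells with 1 Myh11 UMI and in 9 of the 1372 with none. Of the 7 Myh11-positive cells below 1%, 6 had 2 Myh11 UMIs, and all 53 cells with 10 or more reached it.

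Cartilage genes made up a median 0.574% of the UMIs of a Myh11-positive cell, 4.61% in cells with no Myh11 and 0.0227% in the 2-month knockout cells. They reached 1% in 8 of the 94 cells, against 1298 of 1372 cells with no Myh11. Of the 8, 4 had 2 Myh11 UMIs and contractile shares under 1%. The other 4 had both shares at 1% or more, 3 of them with 10 or more Myh11 UMIs, and these 4 had a median of 16884 UMIs, against 7594.5 over all 94. Doublets, droplets with more than 1 cell, were not called, and their part in these 4 cells was not tested.

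Some cartilage transcript was present in every cell of the library. The lowest cartilage share of any of the 1577 cells was 0.352%, in a Myh11-positive cell, and Col2a1 had a UMI in 85 of the 86 Myh11-positive cells with a cartilage share under 1%. In these 86 cells the 22 cartilage genes with at least 100 CPM in the cells without Myh11 stood at 4.87 to 27.2% of their level there, with a median of 9.94%. Free RNA in the droplets would reach all cells of a library, and its part in these levels was not tested. Of the cells with no Myh11, 74 also had a cartilage share under 1%, with Acta2 at 694 CPM and Lum at 8062 CPM, so a low cartilage share was not particular to the Myh11-positive cells.

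**Figure D2:**
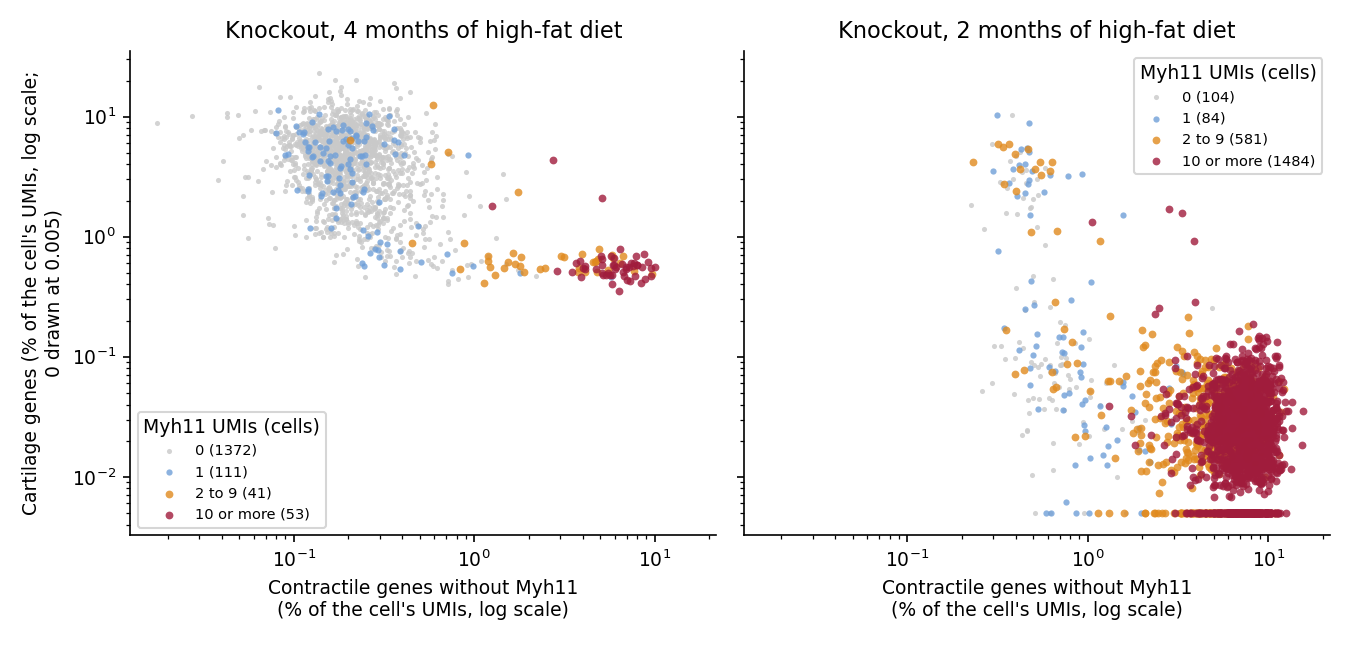
Share of each cell's UMIs from contractile genes without Myh11 (horizontal, percent, log axis) and from cartilage genes (vertical, percent, log axis, 0 drawn at 0.005), 1 point per cell, coloured by Myh11 UMIs, for the 4-month (left) and 2-month (right) knockout libraries. Most Myh11-positive cells at 4 months lie above 1% contractile and near 0.574% cartilage, the lower edge of that library, whereas the 2-month cells lie near 0.0227%.

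Against the 2-month knockout cells with at least 2 Myh11 UMIs, contractile genes were somewhat lower and cartilage genes higher. None of the 21 contractile genes tested differed by 2-fold in either direction, with a median log2 ratio of -0.58. Acta2 stood at 13716 CPM against 23647, Myl9 at 5668 against 10118, Cnn1 at 1681 against 2614, Tpm2, a tropomyosin of the thin filament, at 4132 against 6160 and Tagln at 394 against 478. All 15 cartilage genes tested were at least 2-fold higher, with a median log2 ratio of 3.18. Over all 6305 genes tested 319 (5.06%) were at least 2-fold higher and 133 (2.11%) at least 2-fold lower, and the median log2 ratio was 0.02. Both groups were chosen by Myh11, so closeness in the contractile genes is in part set by the rule.

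The gap in contractile genes was smaller at matched Myh11 counts. Among cells with 10 or more Myh11 UMIs in both libraries, the contractile median was -0.19, with Acta2 at 19360 CPM against 25888 and Eln at 173 against 183. Cartilage genes stayed higher, all 14 tested by at least 2-fold (median 4.34), beside 300 of all 6347 genes (4.73%) higher and 183 (2.88%) lower. Fibroblast genes were higher in 4 of 6 (median 1.20) and bone and mineral genes in 5 of 10 (median 1.35). Of 17 stress and dissociation genes 5 were lower and 2 higher (median -0.77), and of 9 interferon genes 3 were lower. None of the 21 contractile genes differed by 2-fold in these cells.

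The highest ratios to the 2-month cells were led by Gm12918, a predicted gene whose reads may be shared with a related copy, and Cnmd, the cartilage protein chondromodulin, at 1233 CPM against 61.5. Cytl1, a secreted protein of cartilage, stood at 1410 CPM against 84.5. Fmod, fibromodulin, stood at 482 CPM against 29.1, and Chad, chondroadherin, at 1626 against 122. Acan, the aggregating proteoglycan of cartilage, stood at 247 CPM against 24.6. For each of these named cartilage genes the cells of the 4-month library with no Myh11 were higher still, Cnmd at 4487 CPM and Chad at 6169. Among the 15 genes with the highest ratio, C3, a complement component (142 CPM against 9.17), and Rgs5 were the ones with a higher level in the Myh11-positive cells than in the cells with no Myh11.

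The position of the Myh11-positive cells between the other groups was counted gene by gene. Of the 319 genes at least 2-fold above the 2-month cells, 186 were higher still in the 4-month cells with no Myh11, 100 of them by at least 2-fold. A further 64 were at least 2-fold higher in the Myh11-positive cells than in both groups. These included Rgs5, the surface proteins Ly6a, Ly6c1 and Thy1 (120 CPM against 13.6 in cells with no Myh11 and 21.6 at 2 months) and the heat shock gene Hspa1b (273 against 67.8 and 61.4). Col14a1, a collagen of fibroblasts, and C1s1, a complement protease, belonged to the same set. Of all 6478 genes tested against the cells with no Myh11, 18.1% were at least 2-fold higher in the Myh11-positive cells and 7.12% lower. The count of 64 among 319 is therefore not read as particular to these cells. The share of all genes that were higher by any amount in the cells with no Myh11 was not counted.

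Fibroblast genes were higher than at 2 months, 6 of 6 tested (median log2 ratio 1.78). Dcn stood at 3306 CPM against 679, Lum at 2753 against 536 and Col1a1, a chain of type I collagen, at 992 against 279. Summed over the fibroblast list, single Myh11-positive cells ranged from 1531 to 54736 CPM with a median of 4602, against 0 to 87912 with a median of 1266 at 2 months. The ranges overlapped, although the medians differed. Among cells with 10 or more Myh11 UMIs, Dcn had a UMI in 51 of 53 at 4 months and in 614 of 1484 at 2 months. As for the cartilage genes, the part of free RNA in these fibroblast levels was not tested. Of 10 bone and mineral genes 5 were higher and Sost lower (458 CPM against 1101), and of 6 surface genes of mesenchymal stem cells 3 were higher (median log2 ratio 1.16). Among cells with 10 or more Myh11 UMIs in both libraries that last list had 1 higher and 1 lower, with a median of -0.15.

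Genes lower than in the 2-month cells were fewer. Adm, the vasodilator peptide adrenomedullin, stood at 21.8 CPM against 115, Sertad1, a cell cycle regulator, at 80.0 against 409 and Tcap, a titin-binding sarcomere protein, at 104 against 484. Rasl11b, a small GTPase, stood at 105 CPM against 369 and Gadd45g, a stress-induced gene, at 469 against 1497. Of 17 stress and dissociation genes 4 were lower and Hspa1b higher, with the immediate early gene Fos at 971 CPM against 2567. Gm8430, Gm6807 and Rpl36-ps2, also among the lowest, can share reads with related copies. Of 9 interferon genes 3 were lower, Isg15 at 38.8 CPM against 104 among them. Stress and dissociation genes summed to 9391 CPM in the Myh11-positive cells, 14052 at 2 months and 6633 in cells with no Myh11, and their part in the other differences was not tested.

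**Figure D3:**
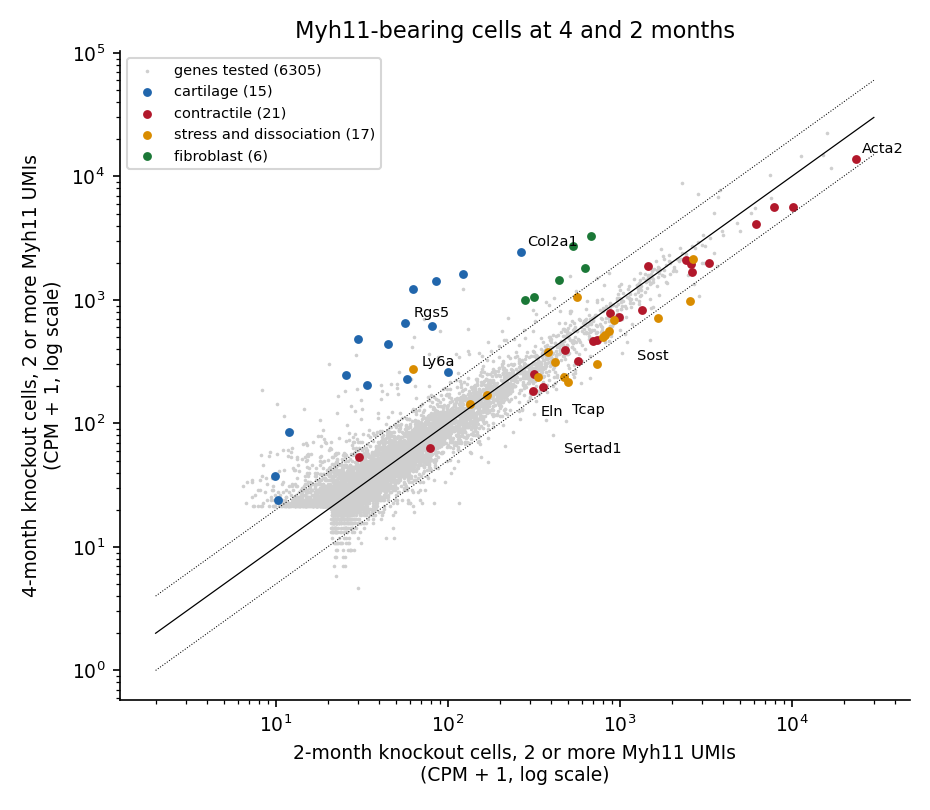
Level (CPM + 1, log axes) of each of 6305 genes in the Myh11-positive cells at 4 months (vertical) against 2-month knockout cells with at least 2 Myh11 UMIs (horizontal), with the line of equality, dotted lines at 2-fold and 4 gene lists coloured. All 15 cartilage and 6 fibroblast genes lie above the upper dotted line, and the 21 contractile genes lie within the dotted lines.

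The Myh11-positive cells were not uniform. Rgs5, which encodes an inhibitor of G protein signalling in mural cells (chromosome 1, 169655501 to 169695813, plus strand), stood at 644 CPM (590 to 701), against 57.4 at 2 months and 4.70 in cells with no Myh11. The split described next was chosen after the values were seen. Of the 94 cells, 15 (16.0%, 95% interval 9.2 to 24.95%) had 10 or more Rgs5 UMIs, up to 63, and held 92.1% of all Rgs5 UMIs of the Myh11-positive cells. None of the 111 cells with 1 Myh11 UMI or the 1372 with none had 10 or more.

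Sost was not detected in the cells with 4 or more Rgs5 UMIs. Both genes had a UMI in 13 of the 94 cells, each with at most 3 Rgs5 UMIs. The 15 Rgs5-high cells held 0 Sost UMIs in all, and so did the 3 cells with 4 to 9 Rgs5 UMIs, whereas 45 of the 76 cells with fewer than 4 Rgs5 UMIs (59.2%) had Sost. Depth was alike, with a median of 7222 UMIs in the Rgs5-high cells and 7705.5 in the others. In the 7 other libraries nearly every Rgs5-high cell had a Sost UMI: 14 of 15 in the 2-month knockout library, 24 of 25 at 1 month, all 20 on ND, and from 40 of 44 to all 70 in the Apoe-/- libraries. These counts were near the share among cells with fewer than 4 Rgs5 UMIs there, 88.2 to 99.1% by library. With 15 cells of 1 library, no test was made of the lack of Sost in the 4-month Rgs5-high cells.

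**Figure D4:**
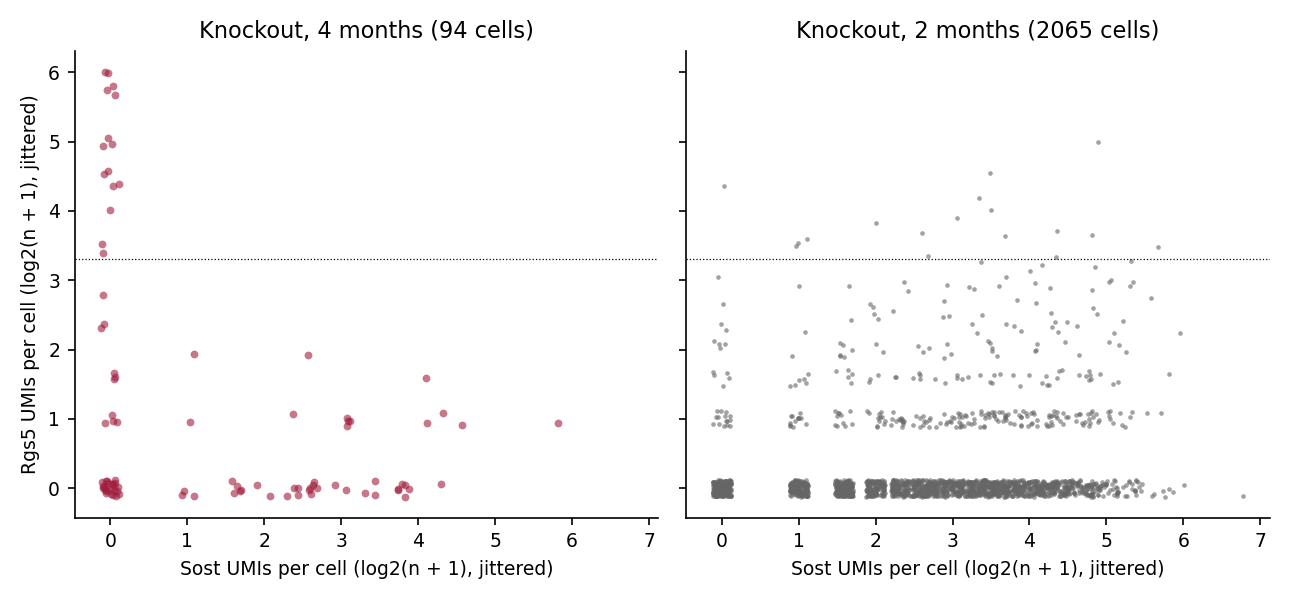
Rgs5 UMIs (vertical) and Sost UMIs (horizontal) of single cells with at least 2 Myh11 UMIs on a log2(n + 1) scale, points moved slightly at random, in the 4-month (left) and 2-month (right) knockout libraries, with a dotted line at the limit of 10 Rgs5 UMIs. The 15 cells above it at 4 months all lie at 0 Sost, whereas 14 of 15 at 2 months have Sost. At 2 months 88.2% of the cells with fewer than 4 Rgs5 UMIs have Sost too.

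The Rgs5-high cells carried the contractile genes, with Acta2 at 12647 CPM against 14281 and Cnn1 at 2058 against 1668 in the cells with fewer than 4 Rgs5 UMIs. Their contractile share ranged from 1.25 to 7.98% with a median of 4.02%, 10 of 15 had at least 10 Myh11 UMIs, and 14 had a cartilage share under 1%. Thbs1, the matrix protein thrombospondin 1, stood at 2146 CPM against 279 and had a UMI in 14 of the 15. Gucy1a1 stood at 802 CPM against 183, Jag1 at 410 against 62.8, Hspa1b at 706 against 200 and Crispld2, a secreted protein, at 305 against 27.8. On the other side were Ncam1, an adhesion molecule (52.3 CPM against 311), and Aqp1, a water channel (52.3 against 316). Of the other pericyte markers, Pdgfrb, a growth factor receptor, was higher (131 CPM against 58.5), whereas Abcc9, a subunit of a potassium channel, was lower (95.9 against 164). Kcnj8, the pore subunit of that channel, had a UMI in 1 of the 15 cells. The pericyte list thus did not move together in these cells.

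Fibroblast transcripts were higher in cells with fewer Myh11 UMIs. The 15 Rgs5-high cells carried them too, with Lum at 3611 CPM against 2477 and Dcn at 2686 against 3110 in the cells with fewer than 4 Rgs5 UMIs. Among the 41 Myh11-positive cells with 2 to 9 Myh11 UMIs Lum stood at 5071 CPM and Dcn at 5607, against 818 and 1385 in the 53 cells with 10 or more. Lum reached 10 UMIs in 29 of the 41 cells and in 10 of the 53. Ly6a, which encodes the surface protein Sca-1, stood at 901 CPM in the former and 2.22 in the latter. Only 5 cells had 10 or more Ly6a UMIs, all with 2 to 6 Myh11 UMIs and none of them Rgs5-high, and they held 82.3% of the Ly6a UMIs. At 2 months Ly6a likewise stood at 166 CPM in cells with 2 to 9 Myh11 UMIs and 28.2 in cells with 10 or more. In the cells with 2 to 9 Myh11 UMIs Ly6a had a UMI in 19 of 41 at 4 months and 67 of 581 at 2 months. Its excess over 2 months without the 5 cells was not computed. Among cells with 10 or more Myh11 UMIs in both libraries the log2 ratio of Ly6a was -3.18, the opposite sign to 2.74 over all. That value is near the floor, with a Ly6a UMI in 1 of 53 cells at 4 months and 95 of 1484 at 2 months.

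Across all 8 libraries, cells with at least 2 Myh11 UMIs differed by genotype in Eln, Pmepa1 and Fbln5, genes shown after their values were seen. On ND and after 1, 2 and 4 months, the Apoe-/- cells held Eln at 3439, 1896, 2362 and 1904 CPM and the knockout cells at 715, 516, 299 and 162 CPM. Pmepa1, a target and inhibitor of TGF-beta signalling (chromosome 2, 173224458 to 173276533, minus strand), stood at 473, 454, 457 and 650 CPM against 50.1, 77.9, 51.8 and 66.7. Fbln5, an elastin-binding fibulin, stood at 1081, 928, 936 and 986 CPM against 61.9, 129, 143 and 171. All 4 knockout libraries were below all 4 Apoe-/- libraries for these chosen genes. The share of all genes that separate the libraries in this way was not counted, so the pattern is not read as particular to them. The 4-month knockout cells were the lowest of the 8 for Eln but not for Pmepa1 or Fbln5.

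Other genes did not follow that order. Acta2 stood at 24637, 23696, 23647 and 13716 CPM in the knockout and at 18268, 20787, 19272 and 14507 CPM in the Apoe-/- cells, so the last step down was present in both genotypes. Dcn stood at 27.5, 196, 679 and 3306 CPM in the knockout, highest in the 4-month cells, and at 29.0, 47.8, 48.5 and 676 CPM in the Apoe-/- cells. Rgs5 was lower in the knockout on the earlier diets, with 105, 132 and 57.4 against 294, 227 and 204 CPM, and higher at 4 months, with 644 against 219.

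**Figure D5:**
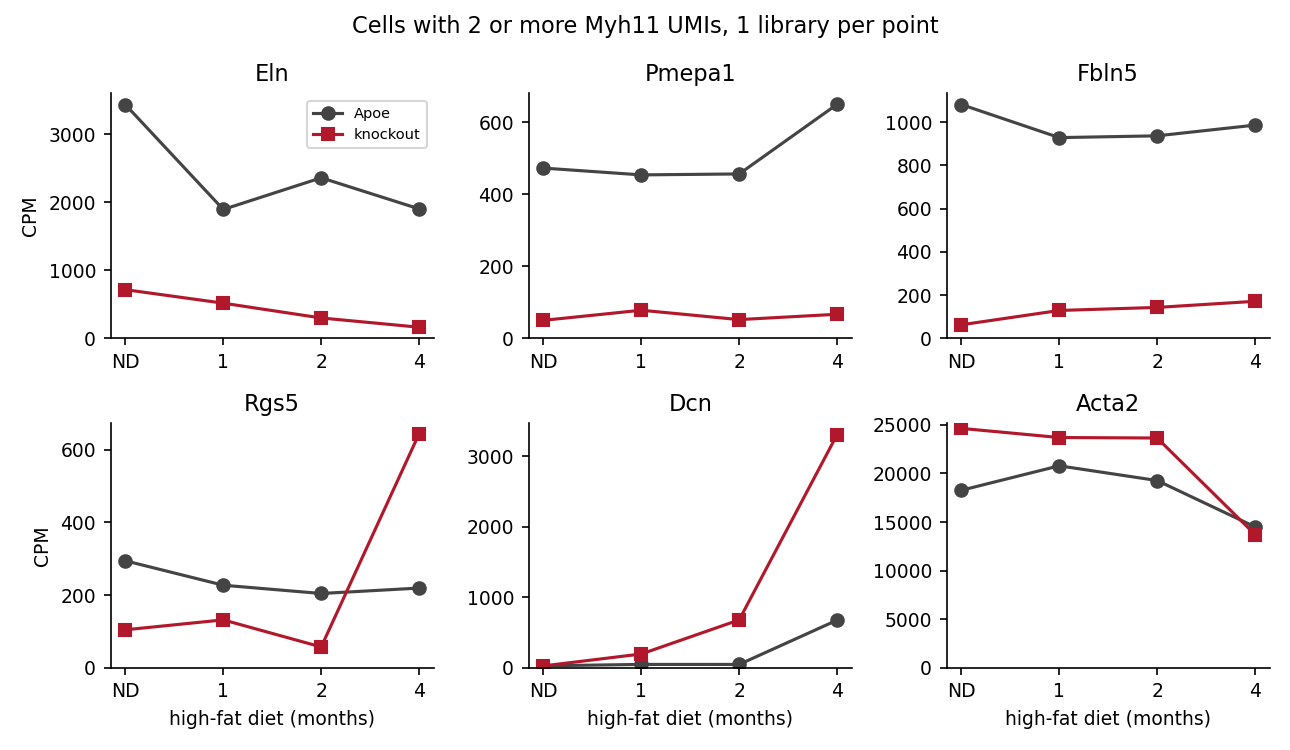
Levels in CPM (linear axes from 0) of 6 genes in cells with at least 2 Myh11 UMIs on ND and after 1, 2 and 4 months of the high-fat diet, 1 library per point, Apoe-/- as circles and the knockout as squares. Eln, Pmepa1 and Fbln5, chosen after their values were seen, are lower in every knockout library than in every Apoe-/- library. Rgs5 crosses over at 4 months.

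Set directly against the 1022 Apoe-/- cells of the 4-month library, the Myh11-positive knockout cells had 332 of 6504 genes (5.1%) at least 2-fold higher and 404 (6.21%) at least 2-fold lower. Of 11 elastic fibre genes 4 were lower, with Eln at 162 CPM against 1904, and of 25 genes of the TGF-beta list 5 were lower and 2 higher. The target Ccn2, connective tissue growth factor, was among the lower (473 CPM against 1217). Of 21 contractile genes 2 were higher and 3 lower, with a median log2 ratio of -0.06. Tagln (394 CPM against 1016) and Fblim1, a filamin-binding adaptor (475 against 1343), were lower, and Mustn1, a small muscle nuclear protein (1946 against 708), was higher. Of 16 cartilage genes 14 were higher, with Col2a1 at 2418 CPM against 615. In the 86 Myh11-positive cells with a cartilage share under 1% Col2a1 stood at 1054 CPM. Every cell of the 4-month knockout library held some cartilage transcript, and the part of free RNA was not tested.

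The 2-month libraries gave the same genotype contrast in cells not shared with these. There 90 of 6339 genes (1.42%) were at least 2-fold higher and 185 (2.92%) lower in the knockout. Of 76 such higher genes tested at both times, 69 had the same sign at 4 months and 42 passed 2-fold, against 186 of 5873 (3.17%). Of 153 lower genes, 101 had the same sign and 47 passed 2-fold, against 328 of 5873 (5.58%). The share of all these genes with each sign was not counted, so nothing is read from the same-sign counts alone. Sncg, which encodes gamma-synuclein, was higher in the knockout at both times (963 CPM against 116, then 1041 against 358), and Sparcl1, a matricellular protein, was lower (389 against 1339, then 223 against 1582).

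A few contractile genes could not be read in the 94 cells. The 79 cells a listed gene needs are 84.0% of the Myh11-positive cells when no other cell carries it. Des, the muscle filament desmin, Kcnmb1, a potassium channel subunit, and Myocd, which encodes myocardin, were listed at 0. At the shares of the 2-month cells (24.9% for Des, 68.7% for Kcnmb1) they would also have fallen under that limit, so nothing is read from it. Tgfbr2 itself was removed by the authors from the tables according to their names. It remained listed in the Apoe-/- libraries, in 24.4 to 32.9% of cells, and was not analysed here in the knockout libraries, so the deletion was not checked in the 94 cells.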

How the data were processed

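Single-cell transcriptomes of 8 libraries (1 per genotype and diet) were analysed, 13056 cells in all, from 3 tables. The deposited values were log2 of scaled UMI counts plus 1, with trimmed-mean scaling by the authors per the file names. Per the submitters' processing notes the tools were UMI-tools, STAR and featureCounts of Subread 1.6.0 with GRCm38. The annotation release and any doublet removal are not given in the sources used here, and no doublet caller was run. UMIs were recovered as (2 to the power of the value, minus 1) divided by the smallest nonzero such value of the cell. All entries (100%) came out whole within 0.01. The 4-month cells had the same UMIs in the table of both genotypes. Symbols were matched for 11439 of 11447 gene identifiers.

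UMIs were summed per group of cells and given per 1000000. Genes listed in the libraries compared with at least 20 CPM in either group entered, and log2 ratios of (CPM + 1) of at least 2-fold were counted. Such ratios understate the change of low genes. With 1 library per group no p-value was computed. The named genes were the 15 highest and the 15 lowest ratios of each of the main comparisons with at least 50 CPM in the higher group, the markers Myh11, Acta2, Cnn1 and Eln, and the members of 26 gene lists. The cells, lists and comparisons were chosen with earlier results of these data known. Alternatives were another cut on Myh11, thinning to 3000 UMIs, other pseudocounts and filters, the mean of the deposited log2 values, centring on the median and leaving out groups of cells. Scripts ran in Python 3.11.15 with numpy 2.4.6, pandas 2.3.3, scipy 1.17.1 and matplotlib 3.10.9 and were tested on simulated data.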

Additional observations from a re-analysis of the deposited data

Results flagged for a closer look

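Rgs5 in cells with at least 2 Myh11 UMIs differed between the diets in the direction of the genotype contrast. At 4 months its log2 ratio of knockout over Apoe-/- cells was 1.55, whereas on ND and after 1 and 2 months the knockout was at least 1.5-fold lower. This difference was not tested, since each genotype and diet has 1 library. Rgs5 was the one gene flagged for such a pattern among 258 looked at. Of those, genes not listed in every library, Otor among them, could not be flagged. The 15 Rgs5-high cells without Sost hold 92.1% of the Rgs5 UMIs behind the 4-month value.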

How the results depend on the processing

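The share of Myh11-positive cells was 5.96% at 2 UMIs, 13.0% at 1 or more and 4.44% at 5 or more. The numbers of genes at least 2-fold higher and lower than in cells with no Myh11 were 1173 and 461, and against the 2-month knockout cells 319 and 133. Thinning to 3000 UMIs gave 725 lower than in cells with no Myh11 and 336 lower than at 2 months. Without a filter these were 888 and 243, and with the median ratio at 0 the former was 695. A pseudocount of 10 gave 197 higher and 64 lower than at 2 months. A minimum of 50 CPM gave 683 and 285 against cells with no Myh11, and 191 and 68 against 2 months. Mean differences of the deposited log2 values gave 125 and 106, then 39 and 9. Counting only genes no higher in the cells with no Myh11 than in the Myh11-positive cells, an alternative chosen after seeing the data, gave 133 higher and 72 lower than at 2 months. The other 50 values of these results moved by less than 1.5 times or within counting error. The cause of each shift was not tested. Of the values for single genes, 538 kept their side of 2-fold, 10 fell below it, 4 rose past it and 1 that had passed it reversed. The reversed value was the log2 ratio of Ly6a to 2 months, -3.18 among cells with 10 or more Myh11 UMIs. It is near the floor, with a Ly6a UMI in 1 of 53 such cells at 4 months and 95 of 1484 at 2 months. Of the 538, 3 changed sign within 2-fold. Tagln against 2 months went from -0.28 to 0.08 among cells with 10 or more Myh11 UMIs. Thbs1 against cells with no Myh11 went from 0.61 to -0.13 with the mean log2 values and to -0.26 without the Rgs5-high cells. Without the 15 Rgs5-high cells, also chosen after seeing the data, the log2 ratio of Rgs5 to 2 months was 0.04 instead of 3.46. No paired analysis was possible because each genotype and diet has 1 library and the labels carry no replicate numbers. Genes carried by fewer than 79 cells of the library were not listed, a limit near 5% of the cells in every library.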
